A study of Mus musculus with 24 samples.

Results

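The 9 genes of the type I interferon response described here were Isg15, Ifit1, Ifit2, Ifit3, Irf7, Oasl2, Usp18, Rsad2 and Bst2. They were followed in whole liver and isolated hepatocytes of mice with IkkB, Shp2 or both deleted in hepatocytes. They were taken by gene symbol from both deposited expression tables, and all 9 were found among 24319 genes. In isolated hepatocytes of the Shp2 knockout, 5 of the 9 (Isg15, Ifit1, Irf7, Usp18 and Rsad2) fell against wild type, where 4.53% of all genes tested fell. In hepatocytes of the IkkB knockout, Ifit2 and Oasl2 rose, where 7.6% of all genes tested rose. In whole liver of the double knockout, Ifit2, Oasl2 and Irf7 rose, where 11.5% of all genes tested rose.

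The samples were 24 in number, all from male C57/BL6 mice aged 2 months, in 8 groups of 3 biological replicates. The 4 genotypes were wild type (WT), IkkB KO (Alb-Cre+;IkkBf/f), Shp2 KO (Alb-Cre+;Shp2f/f) and Double KO (Alb-Cre+;IkkBf/f;Shp2f/f), each sampled as whole liver and as isolated hepatocytes. The WT label names neither Cre nor a floxed allele, so an effect of Cre or of the floxed alleles and an effect of the deletion cannot be told apart in comparisons with WT. The albumin promoter drives Cre in hepatocytes, so macrophages of the liver are expected to keep both genes, which was not tested here. IkkB, encoded by Ikbkb, is the kinase that activates NF-kB. Ptpn11 encodes Shp2, a phosphatase of tyrosine residues that promotes Ras-Erk signalling and acts on Stat proteins.

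Type I interferons bind the receptor pair Ifnar1 and Ifnar2, whose kinases Jak1 and Tyk2 phosphorylate Stat proteins. Together with Irf9, Stat proteins form a complex that binds the interferon-stimulated response element (ISRE) in promoters. The products of its target genes block viral RNA, translation and budding, and some of them, such as Usp18, shut the receptor down again. Hepatocytes carry this receptor, and liver macrophages (Kupffer cells) and plasmacytoid dendritic cells are known sources of interferon.

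The deposited tables give 1 value per gene and genotype, computed by the authors over the pooled replicates, and the header states no unit. By the convention of Cuffdiff the values are FPKM, that is, fragment counts scaled for transcript length and for sequencing depth. No value per replicate and no count was used, so no SD is given and the depth is unknown. "Rose" and "fell" are used where the authors' q-value, their Cuffdiff p-value adjusted for multiple testing, was under 0.05. The liver and hepatocyte tables were normalised separately, and a difference between them was not tested. In whole liver and in isolated hepatocytes alike, fewer cells of a type and less RNA per cell cannot be told apart.

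The targeted genes went with the labels. Ikbkb was 15.7 in WT liver, 9.48 in IkkB KO and 6.31 in Double KO, and in hepatocytes it was 17.3, 7.16 and 5.29. Ptpn11 was 12.5 in WT liver, 4.09 in Shp2 KO and 6.09 in Double KO, and in hepatocytes it was 16.3, 4.46 and 5.77. Of 8 hepatocyte markers, 1 was called against WT in Shp2 KO hepatocytes (Apoa1, an apolipoprotein, lower) and 1 in Double KO liver (G6pc, the last enzyme of glucose release, from 326 to 103), with none in the other knockout groups. Ttr, which encodes the carrier protein transthyretin, was 9726, 10049, 7357 and 5731 in WT, IkkB, Shp2 and Double KO liver, and 8481, 8130, 4469 and 7842 in hepatocytes. Apoa1 is listed at 0 in WT liver, IkkB KO liver and IkkB KO hepatocytes, so no level is read from it there. Alb is listed at 0 in all groups, since Cuffdiff marked it as too abundant to test in all 11 pairs of genotypes.

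The promoter sequences of the members are shown because the ISRE is where the complex of Stat proteins and Irf9 binds. RefSeq windows of 250 bases before to 50 bases after the gene start, on build GRCm38.p6, matched 8 of the 9 members by symbol, and Usp18 was the other. The letters GAAANNGAAA, which stand for an ISRE, were searched on both strands. They were in the windows of 5 of the 8 members (Isg15, Ifit1, Ifit3, Rsad2 and Bst2) and in 3.44% of all 32851 windows. They were not found in the windows of Ifit2, Irf7 and Oasl2, which says only that these letters are not there. The stretches around the matches are printed below for the 5 members, in the direction of transcription with the matched letters in capitals. Overlapping matches run together, and on the opposite strand the letters read TTTCNNTTTC.
Isg15: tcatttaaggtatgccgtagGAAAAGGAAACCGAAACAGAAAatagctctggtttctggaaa
Ifit1: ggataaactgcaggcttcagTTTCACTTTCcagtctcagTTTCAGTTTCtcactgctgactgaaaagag
Ifit3: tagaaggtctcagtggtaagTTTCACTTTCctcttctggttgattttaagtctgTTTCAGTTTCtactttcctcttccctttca
Rsad2: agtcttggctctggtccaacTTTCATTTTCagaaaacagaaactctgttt
Bst2: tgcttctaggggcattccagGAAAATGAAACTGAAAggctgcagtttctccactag
They lie at chr4:156200855-156200916 (minus strand) for Isg15, chr19:34640765-34640833 (plus) for Ifit1 and chr19:34583353-34583436 (plus) for Ifit3. Those of Rsad2 and Bst2 are at chr12:26456543-26456592 and chr8:71537567-71537622, both on the minus strand. All of them end before the gene start. Isg15 held 3 overlapping matches, Bst2 held 2 overlapping matches, Ifit1 and Ifit3 held 2 separate ones each, and Rsad2 held 1. The NF-kB consensus, searched in the same way, was in the windows of Ifit2 and Bst2, 2 of 8 members, and in 8.46% of all windows.

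Across the members Shp2 KO was the lowest genotype for 7 of 9 genes in liver, the others being Oasl2 and Bst2, which were lowest in WT. In hepatocytes it was the lowest for 8 of 9, and Ifit2 was lowest in WT. The highest genotype in liver was Double KO for 5 genes and IkkB KO for 4. In hepatocytes IkkB KO was highest for 6, WT for Isg15 and Ifit1, and Double KO for Rsad2. The highest value was 1.19 (Bst2) to 2.20 (Ifit2) times the lowest in liver and 1.53 (Bst2) to 3.79 (Oasl2) times the lowest in hepatocytes.

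**Figure D1:**
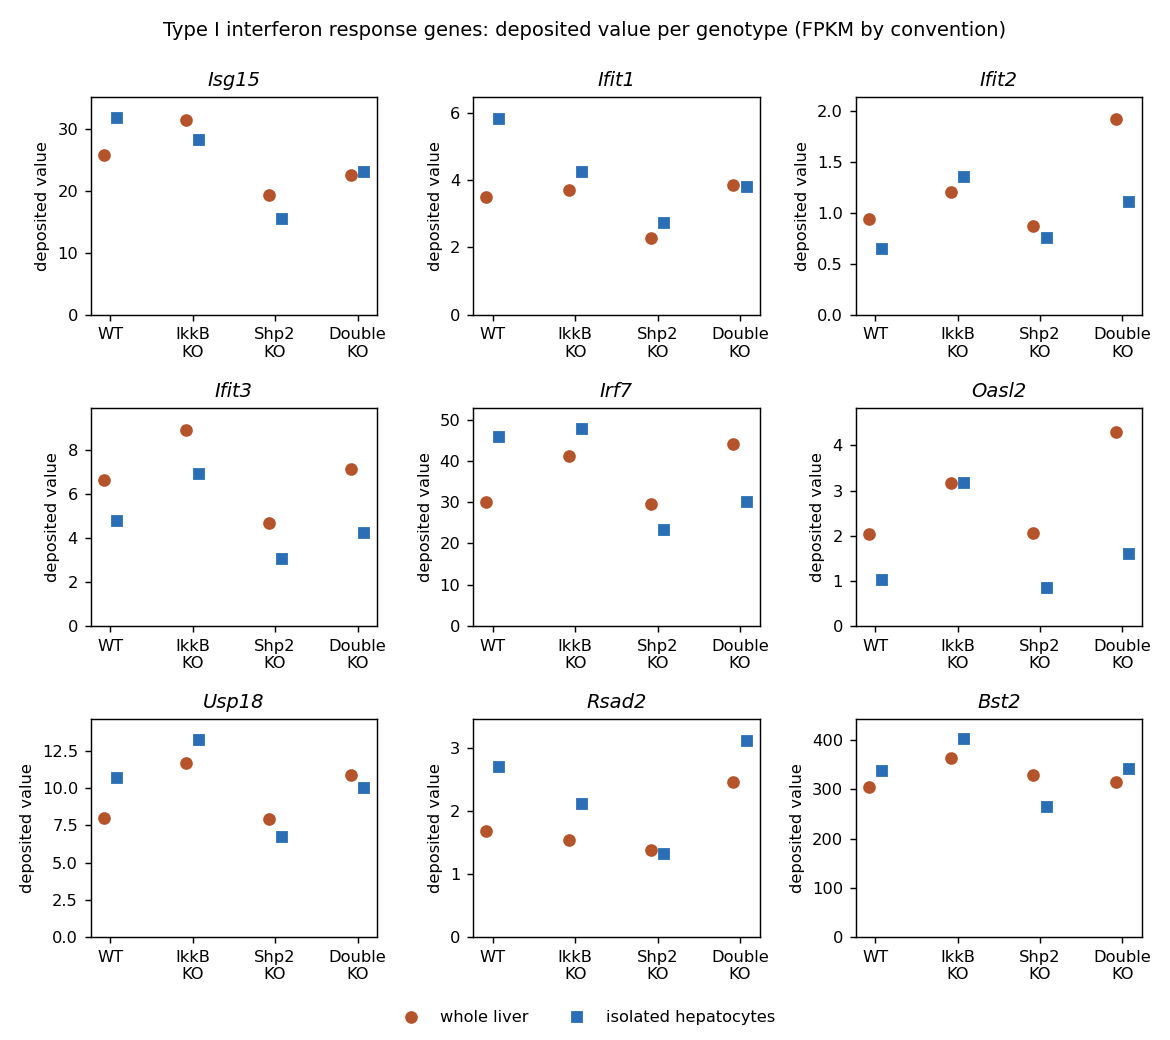
Deposited value of each of the 9 genes (y axis, from 0, FPKM by convention) in the 4 genotypes (x axis), for whole liver and isolated hepatocytes, with 1 point per group and no error since the authors pooled the replicates. In hepatocytes the Shp2 KO point is the lowest of the 4 for every gene but Ifit2.

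Isg15 encodes a ubiquitin-like protein that is attached to other proteins during the interferon response. Its value in WT liver was 25.9, while IkkB KO had 31.6, Shp2 KO 19.3 and Double KO 22.6. In hepatocytes it was 31.9, 28.3, 15.5 and 23.03 in the same order, so that Shp2 KO was the lowest in both. Isg15 fell 2.05-fold in Shp2 KO hepatocytes against WT (q = 0.00127 in the authors' deposited table). In liver it was 1.64-fold lower in Shp2 KO than in IkkB KO (q = 0.00732 in the authors' deposited table), while neither differed from WT past the threshold.

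Usp18 removes Isg15 from its targets and holds back signalling at Ifnar2. It was 8.03, 11.7, 7.96 and 10.9 in WT, IkkB, Shp2 and Double KO liver, so that WT and Shp2 KO lay together below the other two. In hepatocytes it was 10.7, 13.2, 6.71 and 10.03, with WT and Double KO close together and Shp2 KO below both. The 1.59-fold fall in Shp2 KO hepatocytes passed the threshold (q = 0.0204 in the authors' deposited table), and in liver Shp2 KO was 1.47-fold below IkkB KO (q = 0.0454 in the authors' deposited table). The latter call was lost when the authors' Cuffdiff p-values were adjusted within that comparison (adjusted p = 0.0532). The reading strand is not given in the sources used here, and Usp18 overlaps the noncoding gene Gm44148, so its values are uncertain.

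Irf7 encodes the transcription factor that drives interferon genes themselves. In WT liver it was at 30.02, while IkkB KO had 41.1, Shp2 KO 29.6 and Double KO 44.2. Hepatocyte values were 45.8, 47.7, 23.2 and 30.1, so WT and IkkB KO lay high and Shp2 KO and Double KO low. In Double KO the direction differed between the tables: Irf7 rose 1.47-fold in liver (q = 0.0197) and fell 1.52-fold in hepatocytes (q = 0.0208), both against WT and both in the authors' deposited tables. The fall in Shp2 KO hepatocytes was 1.98-fold (q = 0.00048 in the authors' deposited table). Irf7 overlaps Phrf1 on the other strand, and reads of the overlap cannot be assigned without strand.

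Ifit1, Ifit2 and Ifit3 encode related tetratricopeptide proteins that bind viral RNA and hold back translation. Ifit1 was 3.50, 3.71, 2.29 and 3.86 in WT, IkkB, Shp2 and Double KO liver, and 5.82, 4.25, 2.72 and 3.78 in hepatocytes. Its 2.14-fold fall in Shp2 KO hepatocytes passed the threshold (q = 0.00089 in the authors' deposited table), and in liver Double KO exceeded Shp2 KO 1.69-fold (q = 0.0161 in the authors' deposited table). Ifit3 had its highest value in IkkB KO in both tables, with 6.66, 8.91, 4.69 and 7.14 in liver and 4.76, 6.93, 3.06 and 4.22 in hepatocytes. For Ifit3 no knockout passed the threshold against WT, but Shp2 KO lay 1.90-fold below IkkB KO in liver (q = 0.000955 in the authors' deposited table). Reads of Ifit3 and its near-identical copy Ifit3b can be assigned to either, and Ifit3b was 0.533 to 1.79 over the 8 groups. Unlike Ifit3, Ifit3b passed the threshold against WT in Shp2 KO hepatocytes, where it fell 2.43-fold (q = 0.0138 in the authors' deposited table). In liver Ifit3b was lower in Shp2 KO than in IkkB KO (q = 0.0114 in the authors' deposited table).

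Ifit2 differed from the other two in its order. It was 0.944, 1.21, 0.875 and 1.92 in WT, IkkB, Shp2 and Double KO liver, so that Double KO stood above all others. In hepatocytes it was 0.642, 1.36, 0.759 and 1.11, with WT lowest. Ifit2 rose 2.04-fold in Double KO liver (q = 0.000955) and 2.11-fold in IkkB KO hepatocytes (q = 0.0153), both in the authors' deposited tables. Its value in Shp2 KO hepatocytes was above WT and did not pass the threshold (q = 0.739 in the authors' deposited table).

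Oasl2 belongs to the oligoadenylate synthetase family of double-stranded RNA sensors. Its values were 2.04, 3.17, 2.06 and 4.30 in WT, IkkB, Shp2 and Double KO liver, where WT and Shp2 KO did not differ past the threshold and Double KO was highest. The hepatocyte values were 1.01, 3.18, 0.837 and 1.59, where IkkB KO stood apart from the rest. Oasl2 rose 2.11-fold in Double KO liver (q = 0.000955) and 3.13-fold in IkkB KO hepatocytes (q = 0.00048), both in the authors' deposited tables. In hepatocytes Double KO fell below IkkB KO (q = 0.00739 in the authors' deposited table).

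Rsad2 encodes viperin, a radical SAM enzyme that makes a nucleotide analogue which stops viral polymerases. Its liver values were 1.68, 1.55, 1.38 and 2.47 in WT, IkkB, Shp2 and Double KO, and its hepatocyte values 2.71, 2.12, 1.33 and 3.12. Double KO was the highest genotype in both tables, and neither difference from WT passed the threshold (in the authors' deposited tables, liver q = 0.127 and hepatocyte q = 0.647). Against Shp2 KO, Double KO rose 1.79-fold in liver (q = 0.0104) and 2.35-fold in hepatocytes (q = 0.0023), both in the authors' deposited tables. Rsad2 also fell 2.04-fold in Shp2 KO hepatocytes against WT (q = 0.00354 in the authors' deposited table).

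Bst2 encodes tetherin, which holds budding virus particles at the cell surface. It had the highest values of the 9 genes, with 305, 363, 329 and 316 in WT, IkkB, Shp2 and Double KO liver and 338, 404, 263 and 342 in hepatocytes. No pair of genotypes passed the threshold for Bst2 in either table (lowest q = 0.228 in the authors' deposited tables).

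Set against all genes tested, the calls differed by genotype. The 3 comparisons with WT in a table share the same WT values. In IkkB KO liver none of the 9 members was called by Cuffdiff, where 2.37% of 12484 genes were called higher and 2.17% lower, and 4 members had an unadjusted p under 0.05, all higher. Shp2 KO liver had no member called either, against 5.23% of all genes higher and 4.1% lower, with 3 members at an unadjusted p under 0.05, all lower. In Double KO liver 3 of 9 rose and none fell, where 11.5% of all genes were higher and 6.62% lower. Hepatocytes of IkkB KO had 2 of 9 higher and none lower, against 7.6% and 1.81% of all genes. In Shp2 KO hepatocytes 5 of 9 were lower and none higher, where 4.53% of all genes were lower and 7.13% higher. Of the 9, 1 was lower and none higher in Double KO hepatocytes, against 4.56% and 9.04% of all genes.

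The median difference of the members from WT on the log2(value + 1) scale was 0.28 for IkkB KO liver, -0.05 for Shp2 KO liver and 0.37 for Double KO liver, where the median of all tested genes lay between -0.03 and -0.01. In hepatocytes it was 0.25, -0.60 and -0.09, with the medians of all tested genes between -0.01 and 0.01. Values lay above WT for 8 of 9 members in IkkB KO liver and 8 of 9 in Double KO liver, and below WT for 8 of 9 in Shp2 KO hepatocytes.

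**Figure D2:**
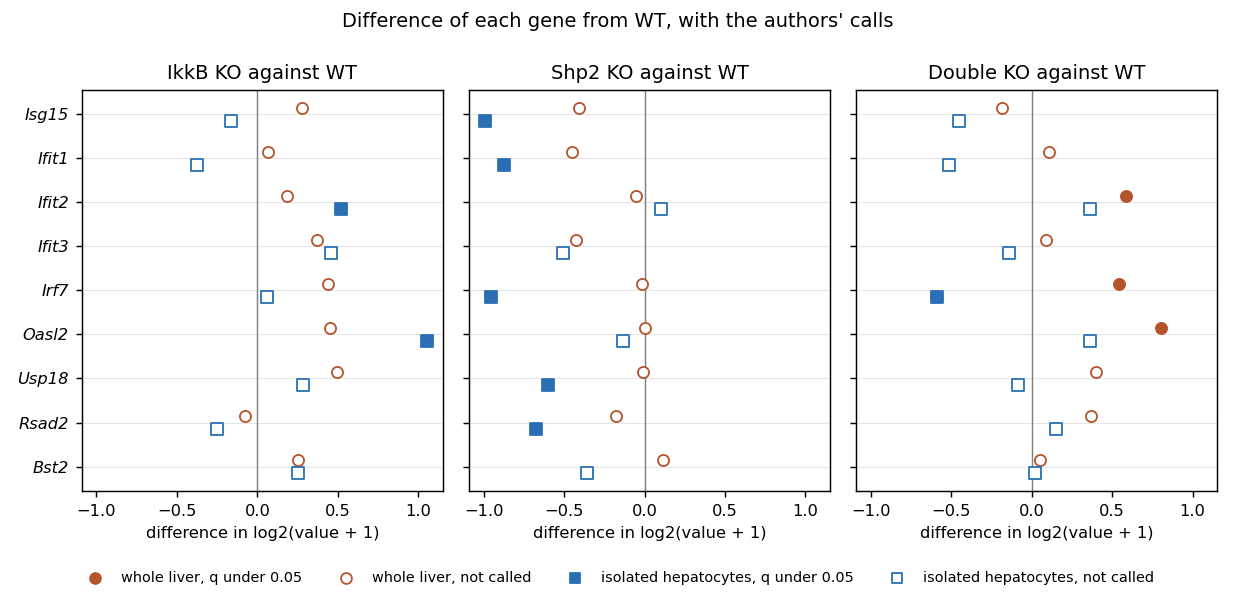
Difference of each of the 9 genes from WT in log2(value + 1) (x axis) for IkkB KO, Shp2 KO and Double KO, in whole liver and isolated hepatocytes. Filled symbols have an authors' q-value under 0.05, and in Shp2 KO hepatocytes 5 filled symbols lie to the left of 0 and none to the right.

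The knockouts were also compared with each other. In liver, Shp2 KO against IkkB KO had 4 of 9 members lower (Isg15, Ifit1, Ifit3 and Usp18) and none higher, where 4.84% of all genes were lower and 5.43% higher. Double KO against Shp2 KO had 6 of 9 higher in liver (Ifit1, Ifit2, Ifit3, Irf7, Oasl2 and Rsad2) and none lower, where 7.94% of all genes were higher and 2.83% lower. In hepatocytes the same pair had 1 of 9 higher, Rsad2, and none lower, against 3.44% and 3.31% of all genes, although all 9 values lay above Shp2 KO.

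Double KO was compared with IkkB KO in both tables. In liver Rsad2 alone of the 9 was higher and none lower, where 11.5% of all genes were higher and 7.5% lower. In hepatocytes Ifit3, Irf7 and Oasl2 were lower and none higher, where 5.62% of all genes were lower and 5.75% higher. The fall was 1.64-fold for Ifit3, 1.58-fold for Irf7 and 2.00-fold for Oasl2. The call of Ifit3 was lost when the authors' Cuffdiff p-values were adjusted within that comparison (adjusted p = 0.06).

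The Double KO difference from WT was set beside the sum of both single differences, on the log2(value + 1) scale and without a test. It lay above the sum for 6 of 9 members in each table, with a median of 0.15 in liver and 0.23 in hepatocytes. Rsad2 stood farthest above, by 0.62 in liver and 1.07 in hepatocytes, where the single differences sum to -0.92 and Double KO was at 0.15. In hepatocytes Isg15 lay 0.70 and Ifit1 0.74 above the sum, while Oasl2 lay below it, at -0.56.

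Markers of other liver cells also differed between the groups. The summed value of 11 macrophage and Kupffer cell markers, none of them at 0, was 247 in WT liver, with values of 336 (IkkB KO), 332 (Shp2 KO) and 663 (Double KO), and 102, 311, 245 and 309.6 in hepatocytes. Of these 11, 2, 3 and 11 were called higher than WT in IkkB KO, Shp2 KO and Double KO liver, and 11, 10 and 11 in hepatocytes. Ifit2 and Oasl2 had their calls in Double KO liver and IkkB KO hepatocytes, where all 11 markers rose. All 11 also rose in Double KO hepatocytes, where neither Ifit2 nor Oasl2 was called and Irf7 fell. In Shp2 KO hepatocytes 5 members fell while 10 of the 11 markers rose. In the same group the hepatocyte marker Apoa1 fell from 16137 to 5770, and Ttr was 4469 against 8481 in WT, a difference that was not called. Of the other hepatocyte markers, Tat was 1082 against 1028 in WT, Hnf4a 186 against 194 and G6pc 255 against 277. Cps1 was 1288 against 1493 and Apob 335 against 441, and none of these was called. Markers of endothelial cells (9 genes) summed to between 72.5 and 98.1 in liver and between 43.6 and 87.3 in hepatocytes, with 8 of them called higher than WT in IkkB KO hepatocytes and 7 in Double KO hepatocytes. In Shp2 KO liver, where 7 of the 9 members had their lowest value but none was called against WT, 4 endothelial markers were called lower than WT. Plasmacytoid dendritic cell markers (6 genes) summed to 1.10, 1.14, 1.04 and 2.26 in WT, IkkB, Shp2 and Double KO liver, and to at most 0.378 in hepatocytes. In Double KO liver 1 of 4 tested, Siglech, was called higher than WT.

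Stellate cell and fibroblast markers (9 genes) summed to 55.0 in WT hepatocytes and 191 in IkkB KO hepatocytes, where all 9 were called higher and Ifit2 and Oasl2 rose. They summed to 90.1 in Shp2 KO and 90.5 in Double KO hepatocytes, with 4 and 6 called higher, and to between 162 and 225 in liver. In Double KO liver 5 stellate markers were called higher and 1 lower. Neutrophil markers (7 genes) summed to 11.7 in WT and 30.8 in Double KO liver, where 2 of 5 tested were called higher, and to at most 2.75 in hepatocytes. Bile duct markers (6 genes) summed to 57.4 in WT and 143 in Double KO liver, where 1 of 5 tested was called higher, and to between 14.5 and 57.5 in hepatocytes. The called marker, Spp1, made up most of these liver sums, at 52.5 in WT and 137 in Double KO, while Sox9 was 1.18 and 0.780. In hepatocytes Spp1 was called higher than WT in every knockout and Epcam in Shp2 KO. Sox9 was called lower in Shp2 KO and Double KO hepatocytes. Lymphocyte markers (11 genes) summed to between 4.77 (Shp2 KO) and 9.76 (IkkB KO) in liver, with 3 of 7 tested called lower than WT in Shp2 KO, and to at most 2.74 in hepatocytes. The part of any of these marker lists in the members' values was not tested.

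**Figure D3:**
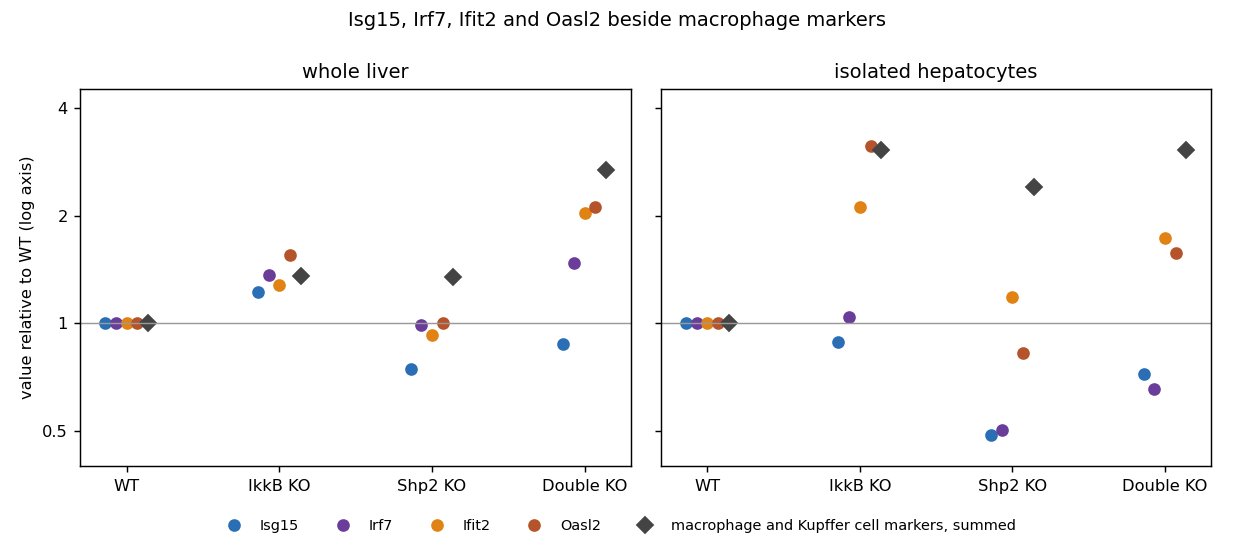
Value relative to WT (y axis, log axis) of Isg15, Irf7, Ifit2, Oasl2 and the sum of 11 macrophage and Kupffer cell markers, by genotype (x axis) in whole liver and isolated hepatocytes, with 1 point per group. The marker sum was 2.4 times WT in Shp2 KO hepatocytes, where Isg15 and Irf7 lay below WT.

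The genes upstream of the members were taken from lists by role. The ligands were at or near 0: of 10 interferon genes, 8 are listed at 0 in all 8 groups, the highest value was 0.104 for Ifng, and none was tested. The receptor chains, named after their values were seen, were not called against WT: Ifnar1 lay between 6.12 and 7.005 and Ifnar2 between 55.6 and 76.7 over the 8 groups. Of the 8 receptors and kinases tested, Il10rb, a chain shared by the interferon lambda and interleukin receptors, was the one called against WT. It rose from 4.66 to 8.83 in Double KO liver, and from 2.46 in WT hepatocytes to 4.19, 5.18 and 4.82 in IkkB KO, Shp2 KO and Double KO.

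Transcription factors of the pathway moved in both directions, by genotype. Against WT, rises were called in IkkB KO and in Double KO liver, and falls in Shp2 KO and Double KO. Irf8, a factor of macrophages and dendritic cells, rose in liver from 2.65 to 4.16 in IkkB KO and 5.57 in Double KO. Irf9, the DNA-binding partner of the Stat proteins, fell in Shp2 KO hepatocytes from 21.96 to 12.99 (q = 0.00127 in the authors' deposited table). Irf5 fell in Shp2 KO and Double KO in both tables, in hepatocytes from 14.7 to 2.85 and 4.12. Irf2, which competes with activating factors at interferon promoters, fell in Shp2 KO from 31.4 to 19.9 in liver and from 29.3 to 18.0 in hepatocytes. Irf2 fell in Double KO too, to 16.7 in liver and 17.4 in hepatocytes.

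Among sensors and adaptors of nucleic acids, Zbp1, a sensor of Z-form nucleic acid, rose in liver from 6.58 to 16.3 in IkkB KO and 13.0 in Double KO, and fell in Shp2 KO hepatocytes from 13.5 to 7.79. Ikbke, a kinase that activates interferon regulatory factors, fell in Shp2 KO and Double KO in both tables. The enzymes that attach Isg15 moved in IkkB KO: Uba7, the activating enzyme, rose from 6.05 to 9.91 in liver and from 6.51 to 9.77 in hepatocytes, and Ube2l6, the conjugating enzyme, rose in liver from 58.2 to 83.3. None of the 4 genes of this list was called in Shp2 KO or Double KO against WT.

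The oligoadenylate synthetases, relatives of Oasl2, rose in Double KO liver for 4 of 8 genes tested (Oas1a, Oas1g, Oas2 and Oas3), Oas2 from 1.83 to 4.30. In hepatocytes Oas2 rose in every knockout, while Oasl1 fell in every knockout, from 11.2 to 6.68, 5.91 and 6.58 in IkkB KO, Shp2 KO and Double KO. A list of 34 further effectors had 8 higher (23.5%) and 2 lower (5.88%) in Double KO liver, where 11.5% and 6.62% of all genes were called. In IkkB KO hepatocytes 10 were higher (29.4%) and 2 lower (5.88%), against 7.6% and 1.81% of all genes. Of 33 tested in Shp2 KO hepatocytes, 1 was higher (3.03%) and 3 lower (9.09%), against 7.13% and 4.53% of all genes. Ifi44 fell in Shp2 KO, from 1.54 to 0.755 in liver and from 1.97 to 0.568 in hepatocytes. Ifi44 also fell in Double KO hepatocytes, to 1.02, and Epsti1 rose from 1.29 to 3.45 in Double KO liver. Socs3, an inhibitor of cytokine receptor signalling and a Stat3 target, fell in IkkB KO from 8.38 to 3.49 in liver and from 12.9 to 7.28 in hepatocytes. It rose to 15.1 in Double KO liver and to 22.5 in Shp2 KO hepatocytes.

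**Figure D4:**
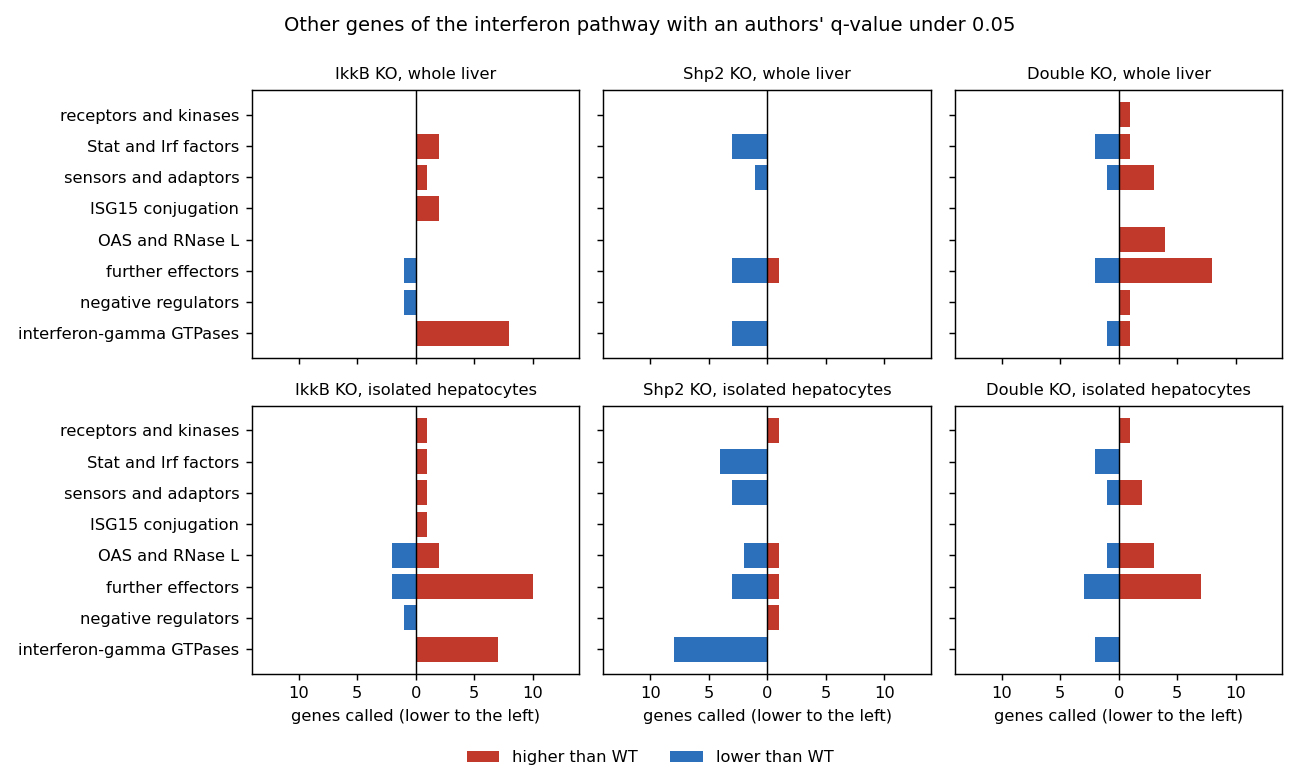
Number of genes in each pathway list (rows) with an authors' q-value under 0.05 against WT (x axis, lower to the left, higher to the right), for each knockout in whole liver and isolated hepatocytes. The interferon-gamma GTPases had 8 genes higher in IkkB KO liver and 8 lower in Shp2 KO hepatocytes.

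All lists but the interferon-gamma GTPases were also counted together and set beside the share of all genes called. In IkkB KO liver 5 of 79 rose (6.33%, against 2.37% of all genes) and 2 fell (2.53%, against 2.17%). In Shp2 KO liver 1 of 79 rose (1.27%, against 5.23%) and 7 fell (8.86%, against 4.1%). Double KO liver had 18 of 80 higher (22.5%, against 11.5%) and 5 lower (6.25%, against 6.62%). Hepatocytes of IkkB KO had 16 of 77 higher (20.8%, against 7.6%) and 5 lower (6.49%, against 1.81%). In Shp2 KO hepatocytes 4 of 75 were higher (5.33%, against 7.13%) and 12 lower (16.0%, against 4.53%). Of 79 in Double KO hepatocytes, 13 were higher (16.5%, against 9.04%) and 7 lower (8.86%, against 4.56%). The shares of genes that fell in IkkB KO liver and in Double KO liver were near those of all genes. The interferon-gamma GTPases, which attack the vacuoles of parasites, had 8 of 10 higher in IkkB KO liver and 7 of 10 higher in IkkB KO hepatocytes. In Shp2 KO hepatocytes 8 of 9 were lower. Igtp, a member of this list, was 20.5 in WT and 92.2 in IkkB KO liver, and 40.4, 88.9 and 17.4 in WT, IkkB KO and Shp2 KO hepatocytes.

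The members' profiles over the 8 group values were compared as a description, since these 8 values come from 4 genotypes and 2 tables and each is shared by all genes. Pearson's r was positive for all 36 pairs of members, with a median of 0.69, from 0.11 for Isg15 and Ifit2 to 0.92 for Irf7 and Usp18. Against the mean of the other members r was highest for Usp18, at 0.97, and lowest for Rsad2, at 0.57, and Ifit2, at 0.59. Of 1356 other genes with a value of at least 1 and a log2 range of at least 1, the 10 most like the members' mean profile had r between 0.89 and 0.94. Among them were Ly6e, Zbp1 and Ifi44, which are interferon-responsive, and Camk2b, Mid1 and Pctp. Ly6e was 169, 209, 151 and 301 in WT, IkkB, Shp2 and Double KO liver, and 238, 314, 155 and 253 in hepatocytes.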

How the data were processed

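PolyA RNA of 24 samples (8 groups of 3) was sequenced on TruSeq v2 libraries. Whole liver and hepatocytes were extracted with different RNeasy kits. Per the submitters' processing notes, FastQC and Cuffdiff were run on build mm9. Aligner, annotation, versions and strand were not given in the sources used here. The authors deposited 1 Cuffdiff table per tissue, with 6 pairs of genotypes in liver and 5 in hepatocytes. The deposited expression values carry no unit in the header (other) and are FPKM by convention. Each unadjusted p-value and each q-value is the authors' own, deposited with the tables, with smallest q-values of 0.000955 in liver and 0.00048 in hepatocytes. The p-values adjusted within a comparison were computed here from the authors' unadjusted p-values. The deposited log2 fold changes and test statistic (a score) were not used. The genotype codes in the headers were matched to the labels by their initials and checked by the targeted genes.

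A gene was called at q under 0.05 where Cuffdiff tested it and its value was at least 0.1 in 1 of the 2 genotypes. Differences were computed as log2(value + 1). Without replicate values or counts, depth and its precision are unknown. Members, lists and markers were chosen with earlier results of these data known. Besides the members, up to 4 called genes per list and table are named (smallest q-value first, ties by size of the difference), and the 10 genes with the highest Pearson r to the members' mean profile, each table centred on its own mean. Alternatives were a q-value under 0.01, adjustment within each comparison, other filters and pseudocounts, an absolute log2 difference of at least 1, and centring. The adjustment of p-values and the correlation with the members' mean profile were tested on simulated data. The tools were Python 3.11.15, matplotlib 3.10.9, numpy 2.4.6, scipy 1.17.1 and pandas 2.3.3. RefSeq promoter sequences (GRCm38.p6) were used by gene symbol, and no coordinate was moved between builds. Some genes that the naming rule covers are not reported here.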

Additional observations from a re-analysis of the deposited data

How the results depend on the processing

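The counts of members called kept within 1.5 times under a value of at least 1 and under no filter on low values in all 11 comparisons. At a q-value under 0.01, members called were 0 in Double KO against IkkB KO, 2 in Double KO against Shp2 KO and 2 in Shp2 KO against IkkB KO in liver. In hepatocytes they were 1 in IkkB KO and 0 in Double KO against WT, and 1 in Double KO against IkkB KO. Irf7 also lost its call in Double KO liver against WT (authors' Cuffdiff q = 0.0197). Likewise Usp18 lost its call in Shp2 KO hepatocytes against WT (authors' Cuffdiff q = 0.0204). Adjusting p-values within each comparison gave 2 in Double KO against IkkB KO liver, where Ifit2 was added. It gave 3 in Shp2 KO against IkkB KO liver, without Usp18, and 2 in Double KO against IkkB KO hepatocytes, without Ifit3, and left the other 8 counts as they were. With an absolute log2 difference of at least 1, on the log2(value + 1) scale, 1 member was called in IkkB KO hepatocytes against WT (Oasl2) and 0 in every other comparison. The 6 medians of the members and the 2 medians against the sum of single differences moved by less than 0.1 with a pseudocount of 0.1, as did the 6 medians with centring. No result reversed.

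The alternatives for the pathway lists, and the pseudocount for the sum of single differences, were chosen after seeing the data. At a q-value under 0.01, list genes called were 4 in Shp2 KO against WT, 15 in Double KO against IkkB KO and 14 in Double KO against Shp2 KO in liver, and 9 in Shp2 KO against WT, 13 in Double KO against WT and 3 in Double KO against Shp2 KO in hepatocytes. With an absolute log2 difference of at least 1, liver had 2, 1 and 2 for IkkB KO, Shp2 KO and Double KO against WT, 3 and 2 for Double KO against IkkB KO and Shp2 KO, and 5 for Shp2 KO against IkkB KO. Hepatocytes had 3, 2 and 3 against WT, 2 for Double KO against IkkB KO and 0 for Double KO against Shp2 KO. These stricter rules call fewer genes by construction.

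No paired analysis was possible because the tables hold 1 value per genotype and no column per replicate. Leaving out a replicate was not done for the same reason. The alternatives for Shp2 KO against IkkB KO in hepatocytes were not run, since that pair was not analysed here. The depth is unknown, so no limit on low values can be given.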
